A study of Homo sapiens with 3 samples.

Results

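The neurofilament genes were described here by the accessible chromatin around them in human neurons. The 4 genes are NEFL, NEFM, NEFH and INA. An accessible region was included when at least 1 of its summits, the points of highest signal, lay inside one of these genes or within 100 kb of its outer ends. This gave 23 of the 65234 distinct regions of the data, holding 65 of 145092 summits. ATAC-seq, in which the Tn5 transposase inserts adapters into open DNA, had been run on neurons of the KOLF2.1J line, a reference line of human induced pluripotent stem cells in wide use. The cells carried NGN2 (hNGN2), a neurogenic transcription factor. All 3 samples were biological replicates collected at day 14 of differentiation and formed 1 group with no untreated or undifferentiated control. The authors combined them into 1 list of regions without a value per sample. No spread between replicates and no test between conditions can therefore be given, and values are compared only between loci of the list. The line stands for 1 donor genome, and a bulk list does not tell fewer open cells from less open chromatin per cell.

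Neurofilaments are the intermediate filaments of neurons, and they set the calibre of large axons. NEFL encodes the light chain, which forms the core of the polymer. NEFM and NEFH encode the medium and heavy chains, whose long phosphorylated tails project from it, and INA encodes alpha-internexin, a subunit that is prominent in central and young neurons. NEFH is known to rise late in neuronal maturation, after the other chains. Neurofilament light chain in blood is widely used as a marker of axonal damage.

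Promoter sequence is shown for INA and 3 companions, all with an entry in the RefSeq promoter table (GRCh38.p14). Other regions with a summit beside a gene end, such as the one at NIPSNAP1, were not included. Of the 4 neurofilament genes the table matched INA. PCGF6 and THOC5 carry the highest fold enrichments of the INA and NEFH windows. PRPH, the gene of peripherin, a neuronal filament of the peripheral nervous system, is added as a relative without a region. These 3 companions were chosen after their values had been seen. Each line gives the 250 bases before the start, from 5′ to 3′ on the strand of the gene. The locations are chr10:103276888-103277137 on the plus strand for INA and chr10:103351141-103351390 on the minus strand for PCGF6. They are chr22:29553758-29554007 on the minus strand for THOC5 and chr12:49294897-49295146 on the plus strand for PRPH. Capitals mark CANNTG (the E-box core bound by basic helix-loop-helix factors such as NGN2), GGGCGG or its complement CCGCCC (the GC box) and TATAAA.
INA: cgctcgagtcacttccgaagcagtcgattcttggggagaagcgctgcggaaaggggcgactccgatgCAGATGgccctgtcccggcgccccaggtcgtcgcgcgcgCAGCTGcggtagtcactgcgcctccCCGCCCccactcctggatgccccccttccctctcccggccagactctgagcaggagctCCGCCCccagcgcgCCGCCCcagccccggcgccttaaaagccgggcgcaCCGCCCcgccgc
PCGF6: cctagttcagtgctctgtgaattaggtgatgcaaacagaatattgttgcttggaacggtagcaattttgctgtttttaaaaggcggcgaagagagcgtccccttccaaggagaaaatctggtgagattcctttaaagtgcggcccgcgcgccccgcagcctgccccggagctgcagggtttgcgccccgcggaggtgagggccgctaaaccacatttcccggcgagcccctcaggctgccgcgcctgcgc
THOC5: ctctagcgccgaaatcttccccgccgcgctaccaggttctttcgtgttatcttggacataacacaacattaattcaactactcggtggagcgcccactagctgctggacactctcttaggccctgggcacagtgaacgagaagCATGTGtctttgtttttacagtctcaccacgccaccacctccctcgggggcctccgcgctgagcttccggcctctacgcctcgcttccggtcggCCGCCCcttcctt
PRPH: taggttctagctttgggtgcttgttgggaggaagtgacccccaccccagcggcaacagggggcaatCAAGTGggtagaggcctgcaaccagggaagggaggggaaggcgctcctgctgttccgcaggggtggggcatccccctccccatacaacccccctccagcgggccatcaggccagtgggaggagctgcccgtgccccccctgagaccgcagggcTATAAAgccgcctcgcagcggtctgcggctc

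The INA promoter held 2 E-box cores, CAGATG at -183 to -178 and CAGCTG at -144 to -139, counted from the start, which is position 0. It held 4 GC boxes, all read as CCGCCC on the strand shown, at -119 to -114, -61 to -56, -47 to -42 and -12 to -7. Its strongest accessible summit lay at -48, next to the GC box at -47, in a part with no E-box core. On either strand, CANNTG occurred in 58.1% of the 22199 promoters of protein-coding genes in the table and CAGATG, one of its forms, in 10.2%. CAGCTG, another form, occurred in 13.7% and GGGCGG in 53.7%. In promoters with a region summit within 1 kb of the start, as at INA, CANNTG occurred in 52.0%, against 70.2% of those without. For CAGATG these shares were 7.5% and 15.6%, for CAGCTG 12.5% and 16.1%, and for GGGCGG 67.7% and 25.9%. INA had none of the other words searched, which were CCAAT (in 32.7% of all promoters), TATAAA (9.0%), TGACGTCA (2.01%) and ATTTGCAT (1.59%). PRPH had a TATAAA at -31 to -26 and no GC box. The INA promoter was rich in G and C, at 72.8%, against medians of 65.6% in promoters with a region summit within 1 kb of the start and 52% in those without. Its 30 CG dinucleotides compare with medians of 21 and 4, and PRPH had 10. A match to a short word describes the letters and shows no bound factor.

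Each of the 4 genes was accessible within 1 kb of exactly 1 of its outer ends, and the strongest summits differed in height by up to 3.74 times. Within 500 bp this held for 3 of the 4, beside 59.6% of all protein-coding genes. Only the strongest summit of a region is counted, and that of NEFH is 847 bp inside. A weaker NEFH summit lies at -6 bp. Among all 20037 protein-coding genes, 66.7% had the strongest summit of a region within 1 kb of an outer end, and 70.7% did when starts listed inside the outer ends were counted too. A count of 4 of 4 is not far from the background for so few genes. The gene table gives no strand, and a start was listed for INA only. For the other 3 genes the accessible end is used as the reference, which for each is the end where the gene is known to begin. Heights are given as tags, the number of pooled sequence tags over the summit, recovered from the deposited values. Their exact Poisson 95% intervals cover counting error only and treat every tag as an independent molecule. Whether amplified copies had been removed is not known here. Where such copies remain, the intervals are too narrow. The authors' fold enrichment is the tag count plus 1 over a local background plus 1.

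NEFM spans 24913761 to 24919093 on chromosome 8, a length of 5333 bp. Its region ran from 24913346 to 24915361 and its strongest summit, 44 bp outside the gene, had 1078 tags (interval 1015 to 1144). The fold enrichment was 8.14 over a background of 131.6 tags. NEFL spans 24950955 to 24956612 on the same chromosome, 5658 bp, and its region ran from 24955116 to 24957056 at the higher-coordinate end. The strongest summit, 35 bp outside, had 1044 tags (interval 982 to 1109) and a fold enrichment of 8.92 over a background of 116.1. The tag intervals of NEFM and NEFL overlap, so these neighbours were not ordered by height.

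INA spans 103277138 to 103290346 on chromosome 10, 13209 bp, and its region ran from 103276565 to 103278259. The strongest summit had 696 tags (interval 645 to 750) and a fold enrichment of 7.20. This was below NEFM and NEFL, whose tag counts were 1.55 and 1.5 times as high, with intervals that do not overlap that of INA. NEFH spans 29480218 to 29491390 on chromosome 22, 11173 bp, and its region ran from 29480038 to 29481392. Its strongest summit had 288 tags (interval 256 to 323) and a fold enrichment of 4.67, the lowest of the 4 by both measures. The NEFH interval overlaps none of the other 3, and NEFM had 3.74 times and INA 2.42 times as many tags.

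Set against the regions at the accessible ends of 13367 protein-coding genes, NEFM and NEFL were in the middle by tag count, at percentiles 57.9 and 56.0, while the median gene had 937 tags. INA stood at percentile 36.4 and NEFH at 12.6. By fold enrichment all 4 lay below the median of 10.5, at percentiles 38.5 for NEFL, 33.1 for NEFM, 26.5 for INA and 10.7 for NEFH. The distance between the 2 scales was largest for NEFM, whose background was at percentile 80.7 of the same genes. The histograms of these regions show where the 4 genes fall.

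**Figure D1:**
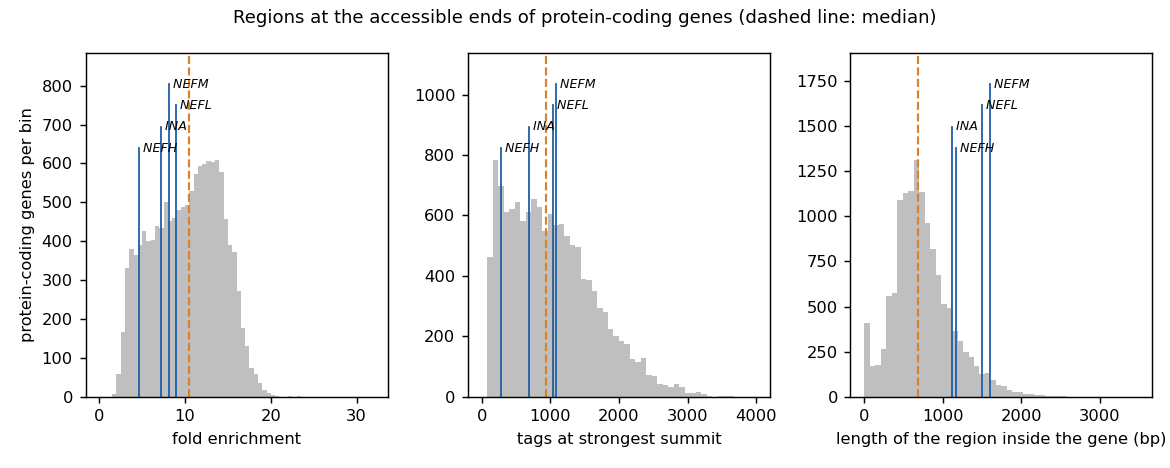
Histograms over the 13367 protein-coding genes with an accessible end of the fold enrichment (left), the tags at the strongest summit (middle) and the length of the region inside the gene in bp (right). Lines mark the 4 neurofilament genes and the dashed line the median. NEFH is lowest on the first pair of scales, and all 4 genes lie above the median length of 692 bp inside the gene.

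The regions at these genes reached further into the gene than is usual. For NEFM 1601 of 2016 bp lay inside the gene (79.4%), for NEFL 1497 of 1941 bp (77.1%), for NEFH 1175 of 1355 bp (86.7%) and for INA 1122 of 1695 bp (66.2%). The median over the 13367 genes was 692 bp and 54.8%. The 4 lengths inside were at percentiles 97.0, 95.5, 87.5 and 85.5 in the same order. The shares inside were at percentiles 89.0, 87.5, 92.8 and 73.9. Most of these regions were also wide as a whole, with widths at percentiles 94.4, 92.6, 55.7 and 82.9. The accessible part covered 30.0% of the whole NEFM gene, 26.5% of NEFL, 10.5% of NEFH and 8.49% of INA. The gene table used here has no exons, so the inner parts were not assigned to exon or intron.

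Each region held 4 or 5 summits, against a median of 3, and the order of heights along the gene differed between members. NEFM had 1078 tags at -44 bp, 381 at 499 bp inside, 889 at 1172 bp and 191 at 1520 bp. Its second summit in height was thus more than 1 kb inside the gene, with 82.5% of the tags of the first. NEFL had 1044 tags at -35 bp, then 454 at 483 bp, 462 at 605 bp, 339 at 941 bp and 372 at 1312 bp. The 4 inner summits of NEFL, from 339 to 462 tags, were all under the one at its end, with intervals that do not overlap it. INA had 175 tags at -303 bp, 696 at -48 bp, 452 at 250 bp, 532 at 509 bp and 188 at 801 bp, so that its inner maximum reached 76.4% of the first.

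NEFH had the reverse order. It had 134 tags at -6 bp (interval 112 to 159), 140 at 377 bp, 148 at 567 bp and 288 at 847 bp (interval 256 to 323). The summit at the end of the gene was a weak one, with a fold enrichment of 2.17 and a −log10 p of 15.6, and the inner one held 215% of its tags. In 7489 genes with both a summit within 250 bp of the accessible end and one further inside, the median of this ratio was 44.4% and it was above 100% in 16.7% (1253 genes). NEFH stood at percentile 95.2, NEFM at 76.8, INA at 73.8 and NEFL at 49.9. A strongest summit at least as far inside as that of NEFH was found in 205 of the 13367 genes, or 1.53%. The 13367 genes were admitted by a strongest summit within 1 kb of an outer end. Genes with strongest summits only farther inside are therefore left out of this share and of the 7489. How rare the NEFH pattern is among all genes cannot be read from them.

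**Figure D2:**
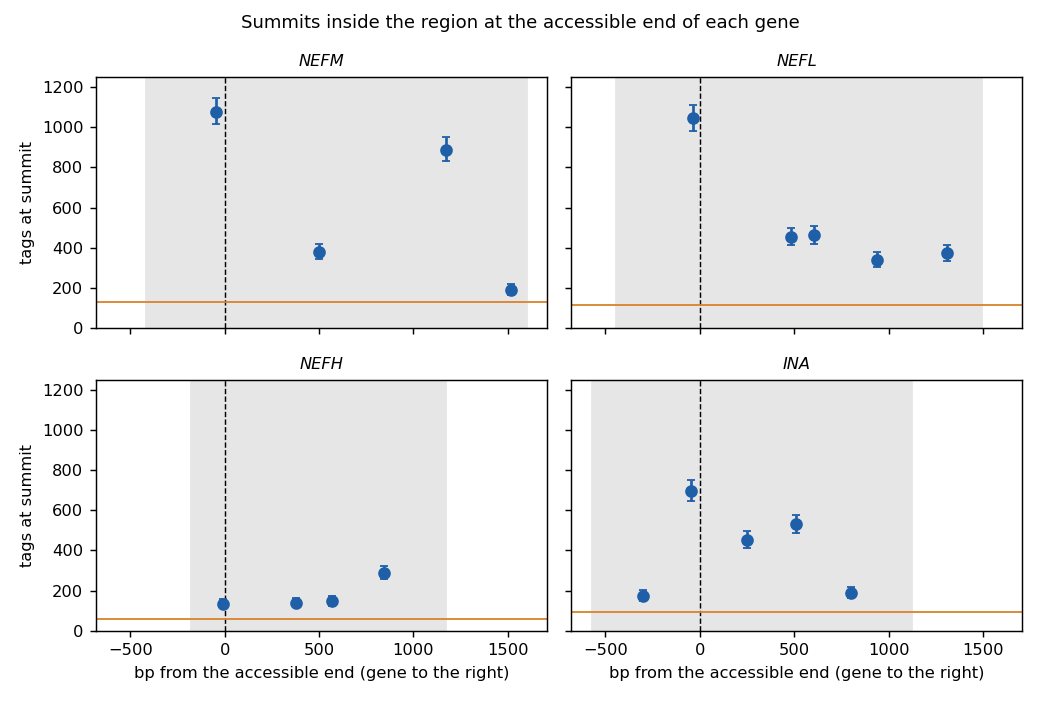
Tags at each summit of the region at the accessible end of NEFM, NEFL, NEFH and INA, against the position in bp from that end, with the gene to the right of the dashed line. Bars are exact Poisson 95% intervals, the grey band is the region and the horizontal line the local background at the strongest summit. NEFM, NEFL and INA are highest beside the dashed line, whereas NEFH is highest at 847 bp inside, with 288 tags.

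The 4 genes also differed in how many regions surround them. The NEFM and NEFL windows share 9 regions and hold 10 together, NEFH has 6 and INA 7. In windows of the same kind around all protein-coding genes the median was 8. NEFM, with 9, stood at percentile 60.0 and NEFL, with 10, at 67.5, while INA stood at 42.7 and NEFH at 33.3. The order depends on the window: within 20 kb NEFM had 1 region (percentile 17.7), fewer than NEFL, NEFH and INA with 2 each (percentile 36.4). Regions with the strongest summit over 1 kb from every annotated gene end, called distal, numbered 7 around NEFL, 6 around NEFM, 3 around INA and 2 around NEFH. The median was 4. NEFM and NEFL are each other's only protein-coding neighbour in these windows, which hold 4 protein-coding gene ends, their own included, against a median of 8. NEFH has 4 other protein-coding genes in its window and INA has 5.

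A gene end was within 1 kb of the strongest summit in 11 of the 23 regions (47.8%, 95% interval by Wilson 29.2 to 67.0%), and in 25.8% of all regions. The windows are placed on genes, which fixes part of this share. The regions are all those of a few loci and were not drawn at random, so the intervals are no test against the share of all regions. Without the 4 regions at the ends of the neurofilament genes it was 7 of 19 (36.8%, interval 19.1 to 59.0%). The 11 had a median fold enrichment of 8.96 and a median of 696 tags, beside 8.58 and 663 for all regions at gene ends. The 12 distal regions had medians of 6.21 and 253.5 tags, beside 5.11 and 201 for all distal regions. Their fold enrichments ranged from 3.25 to 9.17 and their tags from 123 to 1054. A score of 1000, the maximum, was reached by 21 of the 23 regions and by 73.7% of all regions.

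**Figure D3:**
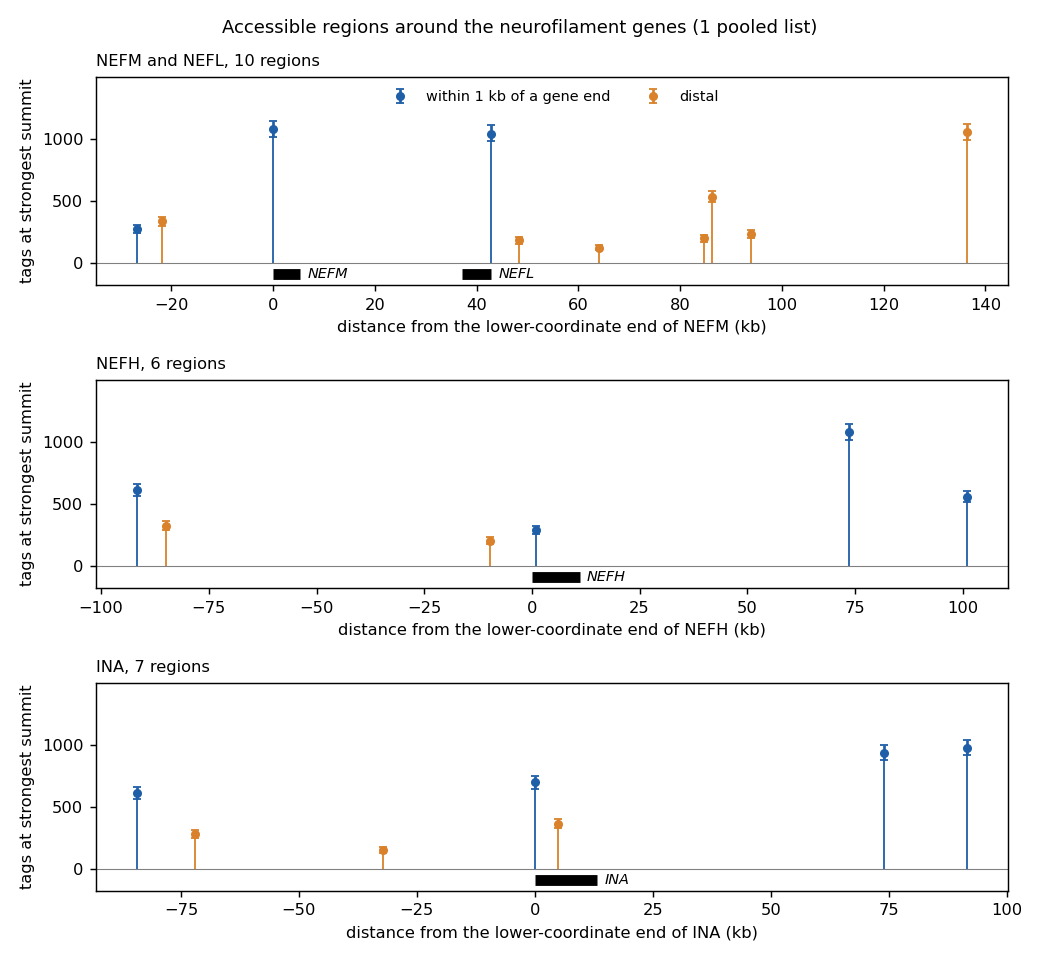
Tags at the strongest summit of each of the 23 regions against the distance in kb from the lower-coordinate end of NEFM, NEFH and INA, with the genes drawn as black bars. Bars on points are exact Poisson 95% intervals, and colours separate regions within 1 kb of any gene end from distal ones. No region lies between the region at NEFM and the one at NEFL, and a distal region with 1054 tags stands at the right of the top panel.

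NEFM and NEFL point toward each other, with their accessible ends on the outer sides and 39.8 kb without any region between the pair of start regions. The closing ends of both genes, the microRNA gene MIR6841 inside NEFL and the uncharacterised transcript LOC112268023 between the genes were not accessible at their ends. Gaps between neighbouring regions had a median of 23.8 kb over the genome, and this one was at percentile 66.2. Distances of distal regions are given from the accessible end of NEFL, on the side away from the gene unless stated. The nearest, from 24961669 to 24962341, had its summit at 5.4 kb with 180 tags and a fold enrichment of 4.21. The next, from 24977574 to 24978074, was at 21.3 kb and the weakest of the 23 by tags, with 123 (interval 102 to 147).

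A group of 3 regions lay inside the uncharacterised transcript LOC105379330, at 41.9, 43.5 and 51.1 kb, with 196, 533 and 231 tags. The middle one, from 24999937 to 25000970, had a fold enrichment of 8.33, close to that at NEFM, and was at percentile 91.1 of all distal regions by tags. The farthest region ran from 25049642 to 25051434 at 93.5 kb, and 17.7 kb from the nearest annotated gene end. It had 4 summits, 1793 bp and 1054 tags (interval 991 to 1120), an interval that overlaps those of the NEFM and NEFL starts. Among all distal regions it was at percentile 98.1 by tags and 98.5 by width. It lies inside the NEFL window and outside that of NEFM. On the other side of the pair, at 26.6 and 21.8 kb beyond the NEFM end, 2 regions had 274 and 335 tags and fold enrichments of 5.48 and 7.10. The first of these (24886695 to 24887646, interval 243 to 308 tags) lies 859 bp from an end of LOC105379329.

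Around NEFH the strong regions belonged to the neighbours. THOC5, a subunit gene of the mRNA export complex THO, had a region at its end from 29553248 to 29554277. Its fold enrichment of 16.0 was the highest of the 23, with 1080 tags (interval 1017 to 1146). The region was 73.6 kb from the NEFH end, and no region lay in the 71.9 kb between it and the NEFH region. The region at NIPSNAP1, a mitochondrial protein gene, ran from 29580054 to 29581499 and had 556 tags (interval 511 to 604), with an enrichment of 9.79. The overlapping ends of AP1B1, an adaptor subunit gene of clathrin coats, and RFPL1 shared a region from 29387895 to 29389029. It had 610 tags (interval 563 to 660), with an enrichment of 10.9. All 3 exceeded the 288 tags at NEFH, with intervals that do not overlap it. Of the 2 distal regions the nearer, from 29469882 to 29470852, lay 9.65 kb before NEFH, inside the transcript LOC107985541, with 202 tags and a fold enrichment of 5.33. The other, from 29394818 to 29395700 inside RFPL1, had 323 tags and 7.93.

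INA was the one member with a further region inside the gene. It ran from 103281641 to 103282189 with a single summit 4.83 kb inside, 363 tags (interval 327 to 402) and a fold enrichment of 4.00. By tags this was percentile 80.7 of all distal regions and by fold enrichment percentile 26.2. On the side before the gene, a region from 103244718 to 103245071 at 32.3 kb had 146 tags and was the narrowest of the 23, with 354 bp, and it lay 1027 bp from an end of RPEL1. Another, from 103204457 to 103205527 at 72.0 kb, had 276 tags over a background of 29.2. Its fold enrichment of 9.17 was the highest of the 12 distal regions, but this background is the lowest of the whole list. By tags the region was at percentile 68.8 of all distal regions.

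The neighbours of INA were open at the known starts of PCGF6, a Polycomb group protein gene, TAF5, which encodes a subunit of the general transcription factor TFIID, and NT5C2, a nucleotidase gene. The PCGF6 region (103350257 to 103351473) reached a fold enrichment of 14.3, with 937 tags (interval 878 to 999). The TAF5 region (103367552 to 103368905) had 9.98 and 975 tags (interval 915 to 1038). The NT5C2 region (103192191 to 103193821) had 8.96 and 607 tags (interval 560 to 657). PCGF6 and TAF5 overlap each other in interval and exceed INA, whereas NT5C2 and INA overlap at 645 to 657. The promoter printed for PCGF6 holds none of the words searched, and its summit lies 14 bp inside the gene.

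The limit of 100 kb decides some counts. The outermost regions inside were at 94.7 kb from NEFL with 1054 tags and at 92.2 kb from NEFH with 610 tags. Among the first ones outside, summits were at 107.3 kb from NEFM with 165 tags, 109.1 kb from NEFL with 269, 110.6 and 112.1 kb from NEFH with 799 and 1814, and 105.6 kb from INA with 1203. These distances are to the summit nearest the limit.

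Other intermediate filament genes were accessible in part. Of 6 other type III and IV genes, 3 had an accessible end (50%), beside 66.7% of all protein-coding genes. With so few genes these shares are not told apart. SYNM, which encodes synemin, had 1036 tags, VIM (vimentin) 1145 and NES (nestin, a filament of neural progenitors) 775. PRPH, DES (desmin of muscle) and GFAP (the filament of astrocytes) had no region at an end or inside the gene. For PRPH the nearest strongest summit was 6664 bp before the start. VIM resembled NEFH in that its strongest summit was 468 bp inside the gene, in a region 2842 bp wide. Of the lamins of the nuclear envelope, LMNA and LMNB2 had an accessible end with 1621 and 672 tags. This 2 of 3 is near the share of all protein-coding genes. LMNB1 had none within 1 kb but had 2 regions inside the gene, and within 2 kb all 3 lamins had an accessible end.

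Keratins, the filaments of epithelia, were rarely accessible. Of 55 keratin genes, 3 had an accessible end (5.45%, Wilson 95% interval 1.87 to 14.9%), against 66.7% of all protein-coding genes. They were KRT10 with 579 tags, KRT86 with 432 and KRT16 with 109, and the 3 summits lay 922, 561 and 422 bp inside. Keratin genes stand in clusters of similar copies, so they are not independent and tags could be split between copies. Of the lens filament genes, BFSP1 was accessible with its summit 842 bp outside the gene. BFSP2 had no accessible end but had 5 regions inside the gene.

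Genes of proteins that build, modify or move neurofilaments were nearly all accessible. Of 26 such genes, 25 had an accessible end (96.2%, Wilson 95% interval 81.1 to 99.3%), against 66.7% of all protein-coding genes. Their median of 984 tags is close to the 937 of all genes with an accessible end. The exception was MACF1, a spectraplakin, which had a region at a start inside its outer ends. In the kinase group all 7 genes had one, from MAPK3 with 253 tags to GSK3B with 3679. CDK5 had 2773 tags, and CDK5R1, which encodes its activator and is no kinase itself, had 1046. The motor genes ranged from 527 tags at KIF5A, the neuronal kinesin heavy chain, to 1302 at DYNC1H1, the dynein heavy chain. Of the linker genes SPTAN1 (spectrin) had 1449 tags and ANK3 (ankyrin of the axon initial segment) 166. Most of these genes are used in many tissues, and the list was not compared with others of like use. It was chosen with earlier results of these data known, so the interval is no test against the background.

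**Figure D4:**
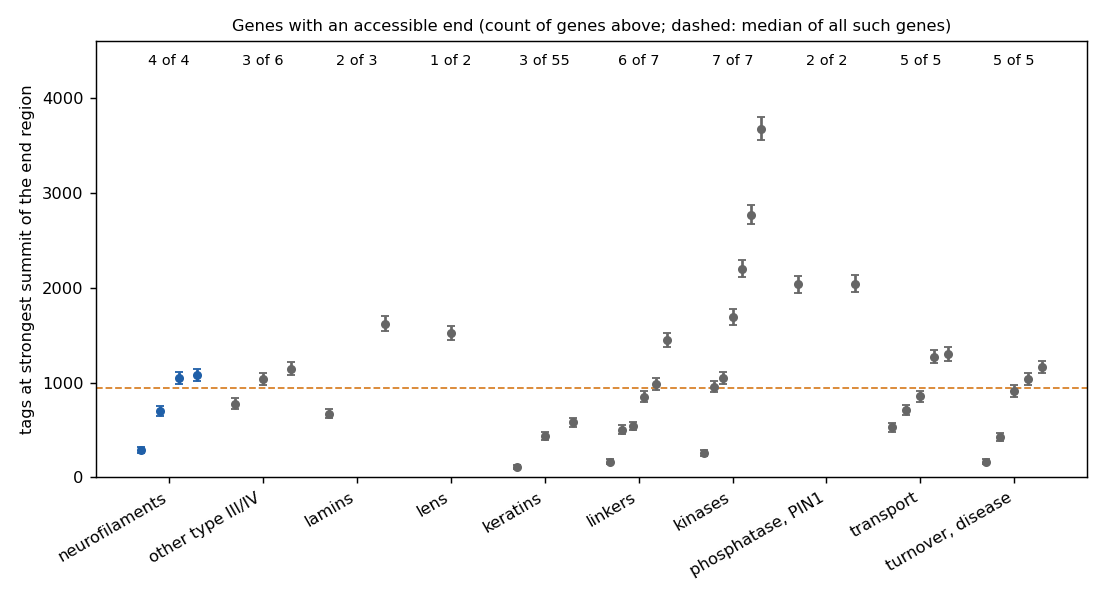
Tags at the strongest summit of the region at an accessible end, for each gene of the filament and partner lists that has one, with exact Poisson 95% intervals. Numbers at the top count genes with an accessible end of those listed, and the dashed line is the median of 937 tags over all such genes. NEFM and NEFL lie just above the line, INA and NEFH below it.

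The labelled cell type was checked against marker genes. Of 12 neuronal genes 9 had an accessible end, among them MAP2 with 1080 tags, SYT1 with 1185 and STMN2 with 550. This is 75% (Wilson 95% interval 46.8 to 91.1%), near the 66.7% of all protein-coding genes, so the count alone does not mark the cells as neurons. TUBB3, RBFOX3 and ELAVL4 had no accessible end. Of 6 pluripotency genes only LIN28A, with 170 tags, had an accessible end, and POU5F1 and NANOG had none. All 5 progenitor genes had one, from PAX6 with 319 tags to HES5 with 1356. Of 6 astrocyte genes 3 had one, with 108 to 284 tags, and of 6 oligodendrocyte lineage genes OLIG1 and OLIG2 did. The part of other cell types in the neurofilament values was not tested. Of 4 keratinocyte genes and 4 muscle genes, KRT10 and CKM were accessible. When listed starts inside the gene were counted too, the background was 70.7%, and the counts became 11 of 12 for neurons (adding TUBB3 and RBFOX3), 2 of 6 for pluripotency (DPPA4), 4 of 6 for astrocytes (SLC1A3) and 3 of 6 for the oligodendrocyte lineage (MBP). The other marker counts did not change.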

How the data were processed

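The data were 1 list of ATAC-seq regions for all 3 samples, named in the labels as the optimal set by irreproducible discovery rate. Per the submitters' processing notes the build is hg38. The aligner, caller and filters are not given in the sources used here. The authors deposited per summit a fold enrichment (a linear ratio) and −log10 p, and per entry a score of 540 to 1000, whose scaling is not stated. Depth per sample is unknown.

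Entries with equal bounds were merged into regions, described by the summit with the highest −log10 p. Tags were recovered from the ratio and −log10 p with a Poisson upper tail. For all 145092 entries a whole tag count gave the deposited −log10 p to within 0.00079 units of −log10 p, and the second nearest count was off by 0.266 such units (median). The lowest background was 29.2 tags. Pooled tags ranged from 58 to 3783 per summit. The code was tested on simulated data.

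Gene ends came from a RefSeq table and starts from a promoter table, both for GRCh38.p14. Of 132 listed genes, 131 matched by symbol and 1 by synonym. Positions count from 1. A percentile is the share of genes or regions with lower values, ties counted by one part in 2. The named genes are the 4 members, genes with an end in a window, and the listed genes, of which some are not reported here by name. Regions at gene ends and the 5 highest by fold enrichment or tags are given with their values, and other regions were added. The members and lists were chosen with earlier results of these data known, so the intervals of list counts are descriptions and no tests. Alternatives were windows of 20, 50 and 200 kb, all entries, a score of at least 830, overlap by 1 bp, end distances of 500 bp and 2 kb, protein-coding genes only, tags in place of fold enrichment, and percentiles among similar genes. Listed starts were added after seeing the data. Python 3.11.15 was used with numpy 2.4.6, scipy 1.17.1, pandas 2.3.3 and matplotlib 3.10.9.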

Additional observations from a re-analysis of the deposited data

How the results depend on the processing

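The 23 regions became 7 within 20 kb, 13 within 50 kb, 40 within 200 kb and 65 as summit entries, as follows from the sequence or entries admitted. They became 22 at a score of at least 830 and stayed 23 with any overlap. By tags, and by tags minus background, NEFM ranked 1 and NEFL 2, the reverse of fold enrichment, with overlapping tag intervals. INA stayed at 3 and NEFH at 4. The log2 difference between the median fold enrichments of regions at gene ends and distal regions was 0.53 (0.75 over all regions). It was 0.38 with all entries (0.22 over all, so that the members then had the larger difference) and 1.46 for tag counts (1.72 over all). Keratin genes with an accessible end fell from 3 to 1 within 500 bp, and lens filament genes from 1 to 0 (of 2 genes, too few for an upper limit). The share of all protein-coding genes fell as well, from 66.7% to 59.6%. Within 2 kb, lamins rose from 2 to 3 of 3 and other type III and IV genes from 3 to 4 of 6. Keratins rose from 3 to 4 of 55, and the share of all protein-coding genes from 66.7% to 71.8%. With 500 bp NEFH was no longer counted, because its strongest summit is 847 bp inside, leaving 3 of 4. A weaker NEFH summit, with 134 tags, lies at -6 bp. Percentiles of region counts ranged over all alternatives for NEFM from 17.7 within 20 kb to 70.9 among windows with a similar number of gene ends, and for NEFH from 15.9 within 50 kb to 51.8 within 200 kb. For NEFL they ranged from 36.4 within 20 kb to 79.7 with all entries, and for INA from 27.0 within 200 kb to 53.0 with all entries. The causes were not tested. No paired analysis was possible because there is a single group and values are pooled, which also kept any replicate from being left out. Counting error alone limits the order of summits whose intervals overlap.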
